A study of Mus musculus with 9 samples.

Results

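Genes for amino acid synthesis and transport were described in B16 cells, a mouse melanoma cell line, sequenced after cyclic straining. The set held 34 gene symbols, chosen by name for their roles in serine, one-carbon, proline and sulfur amino acid synthesis, in transamination, in the arginine pathway and in the carriage of amino acids across the cell membrane. All 34 were among the 22972 gene names of the deposited files, and 30 of them reached a mean of 1 FPKM (a read level corrected for gene length and library size) over the libraries and were tested. A total of 9 libraries were sequenced from wild-type B16 cells cultured on flexible PDMS film and collected on day 3. They fell into 3 groups of 3, which were cells without straining (CTL), cells strained cyclically for 72 h (MS) and cells given blebbistatin, a myosin inhibitor, at 100 ng/mL for 72 h (Blebb). The labels of the last group name the inhibitor and no straining, whereas the methods of the study apply straining after the inhibitor, so whether Blebb was strained cannot be told from the labels. Libraries of a group are called parallel experiments in the labels, which do not say whether the cultures were separate, so the p values below measure only the spread between these libraries, which may be technical.

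Cells take up amino acids through carriers of the solute carrier (SLC) families and build the non-essential ones from intermediates of glycolysis and the citric acid cycle. Serine is made from a glycolytic intermediate by Phgdh, Psat1 and Psph, and passes a carbon unit to folate through Shmt1 in the cytosol or Shmt2 in mitochondria. Many of these genes are known targets of the transcription factor ATF4, whose protein is made when translation initiation factor eIF2 is phosphorylated, for example under amino acid shortage or endoplasmic reticulum stress.

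The libraries differed from each other in ways that the groups did not explain. The first principal component of the 10109 genes tested held 70.4% of the variance. It placed CTL 1 at -42.1 and Blebb 2 at -43.9, and the other 7 libraries between -10.0 and 35.8. The correlation of a library's deviation with the GC content of the genes ran from -0.642 in MS 1 to 0.547 in Blebb 1. Between 9529 and 10388 genes reached 1 FPKM, and the number of reads was unknown. Melanocyte genes were abundant in every library, with 10 markers summing to between 7667 FPKM in MS 1 and 13520 FPKM in CTL 1. The 6 fibroblast markers summed to at most 0.567 FPKM, the 6 macrophage markers to at most 4.32 FPKM, mostly Cd68, and the 6 keratinocyte markers to at most 0.0363 FPKM. Of these lists, Dcn, Lum, Col3a1, Ptprc, Krt1, Krt10 and Trp63 were among those at 0 or below 0.01 FPKM in all 9 libraries. Other markers besides Cd68 were above 0 in every library. Lyz2 was at 0.407 to 1.48 FPKM, Col1a1 at 0.101 to 0.180, Col1a2 at 0.0295 to 0.260 and Pdgfra at 0.0490 to 0.175.

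The levels of the members separated single libraries and not the 3 groups. None of the 30 members passed the test between any pair of groups, as described below. In 13 members, however, CTL 1, MS 3 and Blebb 2 all lay above each of the other 6 libraries, although these libraries belong to 3 different groups. The 13 were Asns, Pycr1, Aldh18a1, Psph, Mthfd2, Cth, Gpt2, Glul, Slc3a2, Slc7a5, Slc1a4, Slc1a5 and Slc6a9. They made up 43.3% of the members tested, beside 15.8% of all genes tested. In Shmt1 and Mthfd1 the same libraries lay below the other 6, which was 6.67% of the members beside 16.1% of all genes. This order of the libraries was noticed in the data, and the counts are a description without a test. The members were also chosen with earlier results of these data known, so the shares cannot be read as an enrichment. The same libraries were those with the highest sums of melanocyte markers, at 13520, 12440 and 12270 FPKM against at most 9305 FPKM in the others. Of the 10 markers, 6 had these libraries above the other 6. Mitf and Mlana did not, and were lowest in CTL 1 and Blebb 2. Mitf was at 9.50 and 8.51 FPKM there and Mlana at 970 and 1072 FPKM. Both CTL 1 and Blebb 2 also stood apart on the first component, and the part of these differences in the levels of the members was not tested. Fewer cells of a kind and less RNA in each cell cannot be told apart in bulk samples.

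**Figure D1:**
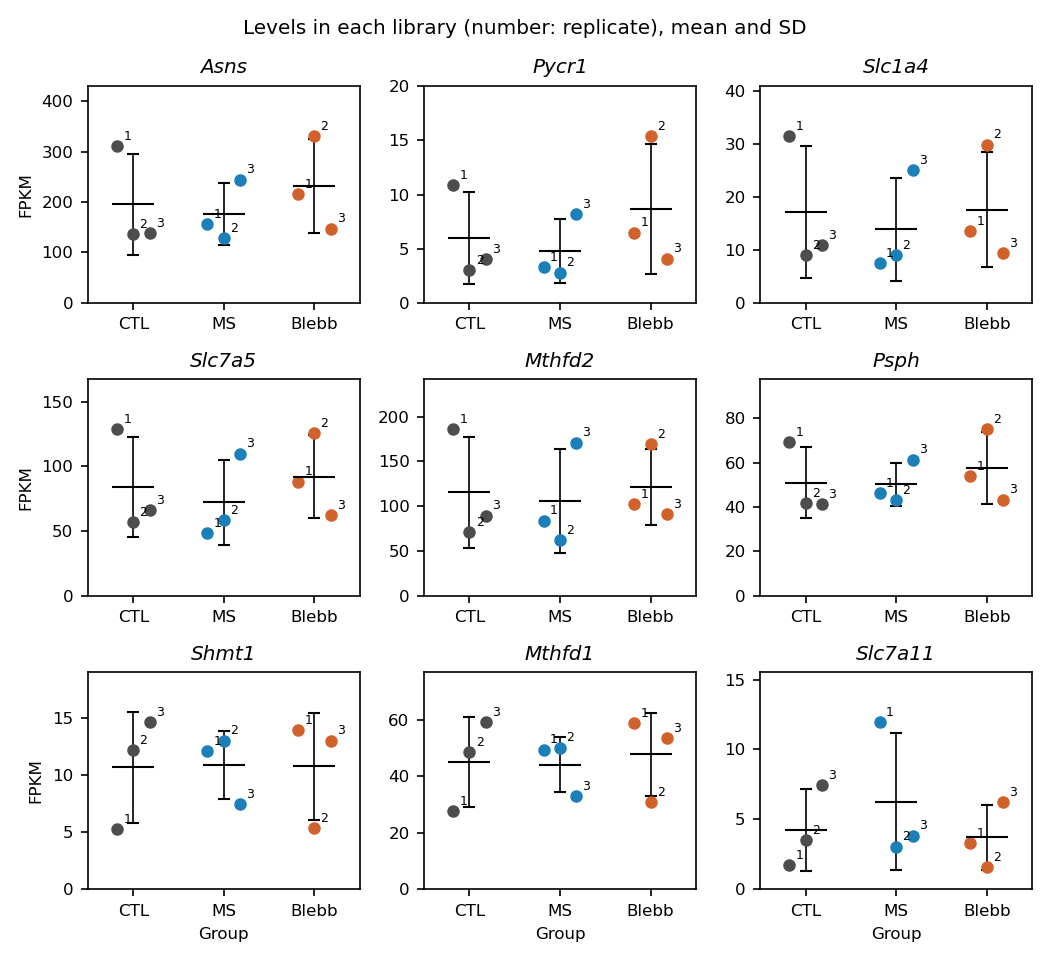
FPKM (y axis) of 9 members by group (x axis), with 1 point per library numbered by replicate, and the mean and SD of each group as a bar with whiskers. In Asns, Pycr1, Slc1a4, Slc7a5, Mthfd2 and Psph the points of CTL 1, MS 3 and Blebb 2 are above all others, in Shmt1 and Mthfd1 they are below, and the group means overlap within their SD in all 9 members.

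Asns, which transfers the amide of glutamine to aspartate to make asparagine, was expressed at 310.1, 137 and 138 FPKM in CTL 1 to 3, 155, 128 and 244 in MS 1 to 3 and 216, 331 and 147 in Blebb 1 to 3. CTL 1, MS 3 and Blebb 2 were 2.25, 1.73 and 1.82 times the mean of the other 2 libraries of their groups, and Blebb 1 was the next highest. The group means were 195 ± 99.6 FPKM in CTL (SD, n = 3), 176 ± 60.9 in MS and 231 ± 92.8 in Blebb, so the spread within each group exceeded the distance between groups. Glul, the glutamine synthetase that makes the amide donor, had the smallest SD over the 9 libraries in its class. Its values were 56.7, 54.5 and 50.5 FPKM in CTL 1 to 3, 50.6, 46.2 and 55.0 in MS 1 to 3 and 47.4, 57.9 and 46.6 in Blebb 1 to 3. The highest library was 1.25 times the lowest, as it was in Got2.

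The transaminases differed among themselves in how far they varied. Gpt2, the mitochondrial alanine aminotransferase, was at 14.0, 6.43 and 7.92 FPKM in CTL 1 to 3, 6.37, 6.11 and 12.4 in MS 1 to 3 and 8.59, 13.3 and 7.24 in Blebb 1 to 3. CTL 1, MS 3 and Blebb 2 were 1.95, 1.99 and 1.68 times the mean of the other libraries of their groups. Got1 and Got2, the cytosolic and mitochondrial aspartate aminotransferases, were far more abundant and much steadier. Got1 was at 141, 164 and 133 FPKM in CTL 1 to 3, 148, 142 and 128 in MS 1 to 3 and 151, 180.4 and 151 in Blebb 1 to 3, and here MS 3 was the lowest library. Got2 lay within 305 to 381 FPKM. Bcat1, the cytosolic branched-chain aminotransferase, lay within 22.7 to 30.0 FPKM. Bcat2, its mitochondrial counterpart, was at 27.5, 37.1 and 32.7 FPKM in CTL 1 to 3, 36.3, 34.2 and 26.6 in MS 1 to 3 and 37.3, 33.1 and 32.5 in Blebb 1 to 3, with its lowest values in MS 3 and CTL 1.

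The enzymes of proline synthesis were among the members that varied most. Aldh18a1 carries out the first steps, from glutamate to its semialdehyde, and was at 98.7, 47.9 and 52.9 FPKM in CTL 1 to 3, 48.0, 46.9 and 82.7 in MS 1 to 3 and 74.5, 103 and 52.0 in Blebb 1 to 3. Pycr1, which makes proline in mitochondria, was at 10.9, 3.03 and 4.05 FPKM in CTL 1 to 3, 3.31, 2.78 and 8.20 in MS 1 to 3 and 6.48, 15.4 and 4.07 in Blebb 1 to 3. In Pycr1, CTL 1, MS 3 and Blebb 2 were 3.07, 2.69 and 2.92 times the mean of the other libraries of their groups, and the highest of all libraries was 5.55 times the lowest.

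Of the 3 genes that make serine, only that of the last step put CTL 1, MS 3 and Blebb 2 above all other libraries. Phgdh, which opens the pathway, was at 405, 298 and 305 FPKM in CTL 1 to 3, 309, 296 and 334 in MS 1 to 3 and 419, 394 and 283 in Blebb 1 to 3. Psat1, the aminotransferase of the second step, was at 121, 88.1 and 118 FPKM in CTL 1 to 3, 114, 99.8 and 117 in MS 1 to 3 and 131, 114 and 107 in Blebb 1 to 3. Both were highest in Blebb 1, and neither put CTL 1, MS 3 and Blebb 2 above the rest. In Phgdh, however, Blebb 1 was the only library to break that order. CTL 1, MS 3 and Blebb 2 were there 1.34, 1.10 and 1.12 times the mean of the others of their groups. Psph, the phosphatase that releases serine, was at 69.3, 41.8 and 41.4 FPKM in CTL 1 to 3, 46.2, 43.1 and 61.3 in MS 1 to 3 and 54.0, 75.0 and 43.3 in Blebb 1 to 3. In Psph these libraries were 1.67, 1.37 and 1.54 times the mean of the others of their groups.

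Both forms of serine hydroxymethyltransferase followed different courses. Shmt2, the mitochondrial form, was at 221, 218 and 229 FPKM in CTL 1 to 3, 221, 215 and 216 in MS 1 to 3 and 316, 230.2 and 210.1 in Blebb 1 to 3. It was nearly level apart from Blebb 1. Shmt1, the cytosolic form, was at 5.27, 12.2 and 14.6 FPKM in CTL 1 to 3, 12.1, 13.0 and 7.49 in MS 1 to 3 and 13.9, 5.39 and 13.0 in Blebb 1 to 3, and in CTL 1, MS 3 and Blebb 2 it was 0.393, 0.596 and 0.399 times the mean of the other libraries of their groups. FPKM is scaled by gene length but not by GC content, with which the deviations of the libraries were correlated to different degrees. GC content was 57.4% in Shmt2 and 49.2% in Shmt1, and its part in their ratio was not tested. The ratio of Shmt2 to Shmt1 was 42.0, 28.9 and 42.8 in CTL 1, MS 3 and Blebb 2, and between 15.6 and 22.6 in the other 6 libraries.

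Among the folate enzymes, CTL 1, MS 3 and Blebb 2 lay above the other 6 libraries in Mthfd2 and below them in Mthfd1. Mthfd2, which oxidizes the folate-bound carbon unit in mitochondria, was at 186, 70.8 and 89.4 FPKM in CTL 1 to 3, 83.9, 62.4 and 171 in MS 1 to 3 and 102, 169 and 91.4 in Blebb 1 to 3. CTL 1, MS 3 and Blebb 2 were 2.32, 2.34 and 1.75 times the mean of the others of their groups. Mthfd1, the trifunctional enzyme of the cytosol, was at 27.7, 48.5 and 59.0 FPKM in CTL 1 to 3, 49.3, 50.1 and 32.8 in MS 1 to 3 and 58.7, 30.9 and 53.5 in Blebb 1 to 3, and these libraries were 0.515, 0.660 and 0.550 times the mean of the others. The ratio of Mthfd2 to Mthfd1 was 6.71 in CTL 1, 5.21 in MS 3 and 5.49 in Blebb 2, against 1.25 to 1.74 in the other 6. As group means it was 3.23 ± 3.01 in CTL, 2.72 ± 2.17 in MS and 2.98 ± 2.17 in Blebb (SD, n = 3), so the groups did not separate. The remaining mitochondrial enzymes of the class did not set CTL 1, MS 3 and Blebb 2 apart from the other 6. Mthfd1l, which releases formate, was at 38.3, 42.3 and 60.5 FPKM in CTL 1 to 3, 60.5, 47.3 and 55.4 in MS 1 to 3 and 46.3, 33.9 and 51.9 in Blebb 1 to 3, with its lowest values in Blebb 2 and CTL 1. Aldh1l2, which oxidizes formyl-folate, was at 4.84, 3.98 and 4.96 FPKM in CTL 1 to 3, 7.99, 3.11 and 6.59 in MS 1 to 3 and 3.22, 3.89 and 5.06 in Blebb 1 to 3, and MS held both its highest and its lowest library. The ratio of Aldh1l1, its cytosolic counterpart and not a member, to Aldh1l2 was 8.97 in CTL 1 and 9.11 in Blebb 2, against 4.80 in MS 3 and 1.74 to 5.06 in the other 6 libraries. In this pair it was thus the cytosolic form whose share was highest in CTL 1 and Blebb 2.

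**Figure D2:**
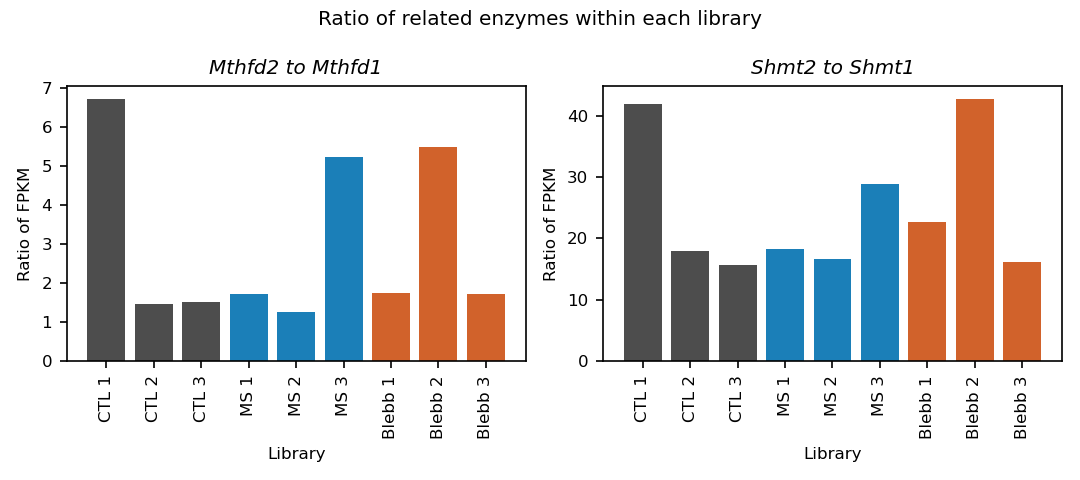
Ratio of the FPKM of related enzymes (y axis) in each of the 9 libraries (x axis), colored by group. Mthfd2 to Mthfd1 is 5.21 or higher in CTL 1, MS 3 and Blebb 2 and at most 1.74 elsewhere, and Shmt2 to Shmt1 is highest in the same libraries.

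In the transsulfuration pathway, which turns homocysteine into cysteine, Cth was expressed at a low level. Its values were 4.52, 2.08 and 3.30 FPKM in CTL 1 to 3, 2.90, 2.16 and 3.87 in MS 1 to 3 and 3.12, 3.55 and 3.13 in Blebb 1 to 3. Cbs, the enzyme of the step before, was under the minimum for the test and lay within 0.473 to 0.991 FPKM, and its lowest library was CTL 2. The Blebb libraries lay above the MS libraries in Cbs, with means of 0.905 and 0.621 FPKM (exact two-sided permutation test, p = 0.1), and 0.1 is the smallest p that 3 libraries against 3 allow. Against CTL the exact permutation p was 0.2 for Blebb and 0.8 for MS.

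Of the arginine genes, Ass1, which joins citrulline to aspartate, was at 57.8, 78.9 and 74.7 FPKM in CTL 1 to 3, 64.3, 71.2 and 50.7 in MS 1 to 3 and 91.6, 68.2 and 85.2 in Blebb 1 to 3. CTL 1, MS 3 and Blebb 2 each held the lowest value of their group, at 0.753, 0.748 and 0.771 times the mean of the others. Arg2, the mitochondrial arginase, was under the minimum at 0.0294 to 0.161 FPKM. The exact permutation p for Arg2 was between 0.7 and 1 in the 3 comparisons, and at this level a difference could not be detected.

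The carriers that pair with Slc3a2 split into several courses. Slc3a2 is the heavy chain that brings its light chains to the cell surface and was at 265, 123 and 148 FPKM in CTL 1 to 3, 132, 124 and 224 in MS 1 to 3 and 177, 258 and 129.8 in Blebb 1 to 3. Slc7a5, the light chain that exchanges leucine and other large neutral amino acids, was at 129, 57.0 and 66.3 FPKM in CTL 1 to 3, 48.1, 58.4 and 109.8 in MS 1 to 3 and 88.2, 126 and 62.1 in Blebb 1 to 3. The ratio of Slc3a2 to Slc7a5 lay between 2.01 and 2.23 in 8 libraries and was 2.75 in MS 1. Slc7a6, a light chain for cationic and neutral amino acids, was steadier, at 8.52, 10.0 and 11.8 FPKM in CTL 1 to 3, 8.89, 10.1 and 9.71 in MS 1 to 3 and 9.93, 8.14 and 11.1 in Blebb 1 to 3. Slc7a11, the light chain of the cystine and glutamate exchanger, had the widest range of all members tested, with a highest library 7.46 times the lowest. Its values were 1.69, 3.49 and 7.42 FPKM in CTL 1 to 3, 11.9, 3.04 and 3.82 in MS 1 to 3 and 3.31, 1.60 and 6.22 in Blebb 1 to 3, highest in MS 1 and lowest in Blebb 2 and CTL 1. Slc7a11 had the lowest GC content of the members at 40.7%, against a median of 51.2% in the set, and MS 1 was the library whose deviations fell most steeply with GC content. With the trend of each library on GC content removed, the log2 ratio of Slc7a11 was 0.23 for MS to CTL and -0.22 for Blebb to MS, against 0.43 and -0.55 before. The same removal moved the ratio of MS to CTL away from 0 in other members, from -0.092 to -0.14 in Asns and from 0.23 to 0.26 in Mthfd1l. The part of GC content in the levels of Slc7a11 was not tested.

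Of the other carriers tested, Slc1a4, Slc1a5 and Slc6a9 had CTL 1, MS 3 and Blebb 2 above the rest, and Slc38a1 and Slc38a2 did not. Slc1a4, which carries alanine, serine and cysteine, was at 31.5, 8.99 and 10.8 FPKM in CTL 1 to 3, 7.53, 8.92 and 25.0 in MS 1 to 3 and 13.5, 29.8 and 9.32 in Blebb 1 to 3. CTL 1, MS 3 and Blebb 2 were 3.18, 3.04 and 2.61 times the mean of the others of their groups. Slc1a5, the glutamine exchanger, was at 50.2, 26.3 and 27.6 FPKM in CTL 1 to 3, 23.0, 24.3 and 39.4 in MS 1 to 3 and 35.1, 53.7 and 28.3 in Blebb 1 to 3. Slc6a9, a glycine carrier, was at 29.8, 13.4 and 9.70 FPKM in CTL 1 to 3, 10.1, 12.3 and 22.4 in MS 1 to 3 and 14.0, 27.7 and 11.4 in Blebb 1 to 3. None of the 3 passed the test between groups. Slc38a1, a carrier of glutamine and other neutral amino acids, was at 43.4, 37.3 and 47.0 FPKM in CTL 1 to 3, 38.3, 33.9 and 54.1 in MS 1 to 3 and 35.2, 36.2 and 42.3 in Blebb 1 to 3, with MS 3 the highest. Slc38a2 was at 30.0, 50.1 and 49.3 FPKM in CTL 1 to 3, 48.5, 37.5 and 50.1 in MS 1 to 3 and 37.2, 27.8 and 46.9 in Blebb 1 to 3, and here CTL 1 and Blebb 2 were the lowest libraries while MS 3 was level with CTL 2.

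Of the cationic carriers, Slc7a1, which imports arginine and lysine, was at 39.1, 24.2 and 34.9 FPKM in CTL 1 to 3, 24.4, 24.2 and 43.6 in MS 1 to 3 and 32.0, 32.5 and 26.7 in Blebb 1 to 3. It was highest in MS 3 and CTL 1, while CTL 3 exceeded Blebb 2. Slc7a3, of the same family, was listed at 0 in all CTL libraries and at most at 0.0314 FPKM. Slc43a1, a carrier of large neutral amino acids, lay within 0.166 to 0.401 FPKM. Neither was tested in the fit. Their exact permutation p was between 0.4 and 1, where 0.1 is the smallest possible.

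**Figure D3:**
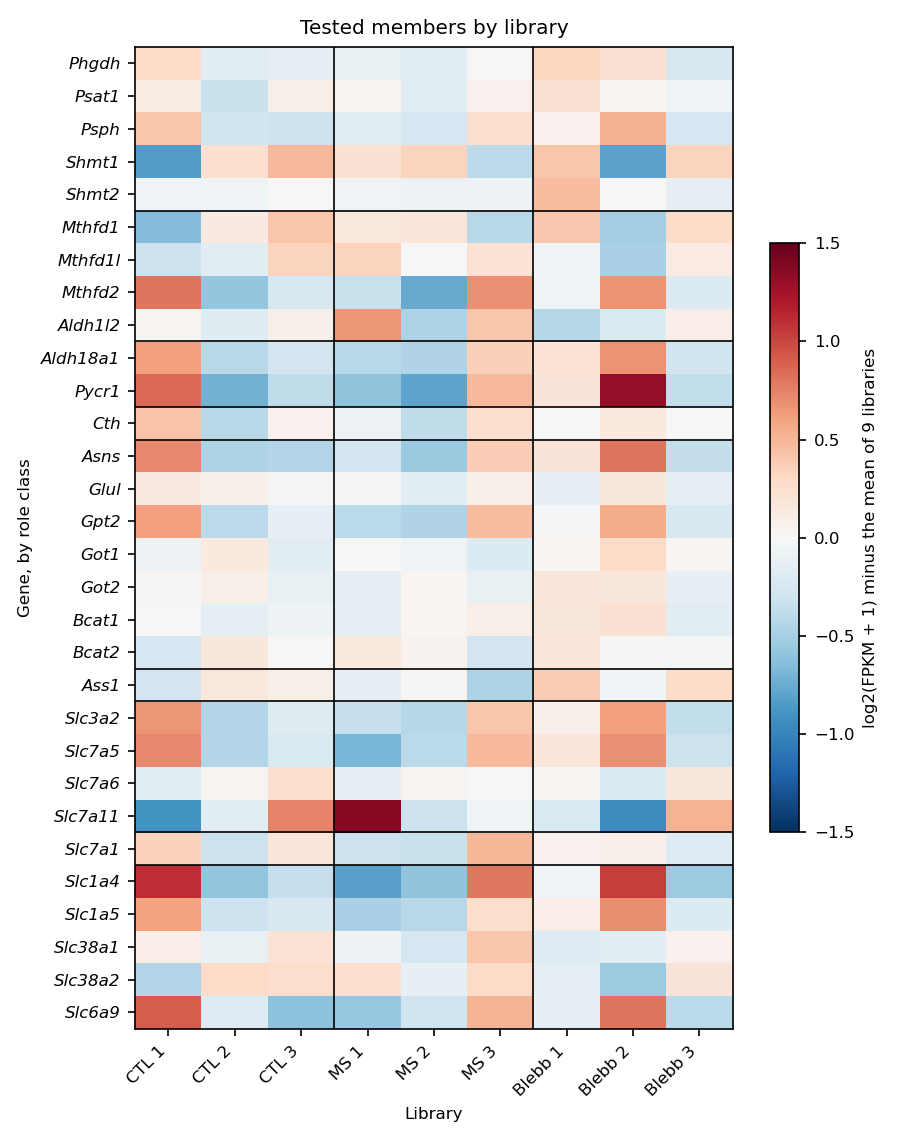
Deviation of log2(FPKM + 1) from the mean of the 9 libraries (color) for the 30 members tested (rows, by role class, separated by lines) in each library (columns, by group). Columns CTL 1, MS 3 and Blebb 2 are red in the rows of Asns, Pycr1, Mthfd2, Slc7a5, Slc1a4 and Slc6a9 and blue in those of Shmt1 and Mthfd1.

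The promoters of the members were searched for the C/EBP-ATF response element, to which ATF4 binds together with C/EBP proteins, because it is the known control site of Asns. The RefSeq table of build GRCm38.p6 held windows of 300 bases, from 250 before to 50 after a start site, for 27 of the 34 members. TGATGNAA, in which N is any base, or its reverse complement TTNCATCA was present in those of Asns, Pycr1, Got1, Slc7a11 and Slc1a4, which was 18.5% of the 27. Among all genes of the reference, 4.51% of 27025 gene symbols had it in their windows. The element was picked as the control site of Asns, and the set holds many known ATF4 targets. These shares therefore cannot be read as an enrichment. The stretches that hold the matches are shown 5′ to 3′ on the strand of the gene, with the match in capitals, since these genes include both members with the order of Asns and members without it.
Asns, chr6:7693210-7693282, minus strand: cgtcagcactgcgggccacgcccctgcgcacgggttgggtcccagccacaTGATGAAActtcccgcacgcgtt
Pycr1, chr11:120643804-120643901, minus strand: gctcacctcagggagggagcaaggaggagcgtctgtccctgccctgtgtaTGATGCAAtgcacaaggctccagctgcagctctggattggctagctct
Slc1a4, chr11:20332710-20332767, minus strand: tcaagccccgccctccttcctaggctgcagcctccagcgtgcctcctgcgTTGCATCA
Slc7a11, chr3:50443614-50443729, minus strand: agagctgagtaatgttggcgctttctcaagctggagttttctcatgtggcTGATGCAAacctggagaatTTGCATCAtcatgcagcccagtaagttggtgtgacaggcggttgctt
Got1, chr19:43524660-43524757, minus strand: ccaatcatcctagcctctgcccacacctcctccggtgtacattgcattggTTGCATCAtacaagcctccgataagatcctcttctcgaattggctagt
The match began 23 bases before the start site in Asns, 103 in Pycr1, 4 in Slc1a4 and 102 in Got1. Slc7a11 had a pair of matches in opposite orientation, 66 and 47 bases before the start. Asns, Pycr1 and Slc1a4 were among the 13 members highest in CTL 1, MS 3 and Blebb 2, whereas Got1 was lowest in MS 3 and Slc7a11 was lowest in Blebb 2. The rest of the 13 had no match or no window. A match is a description of these letters and not a bound site. The E-box CACGTG, which MYC family proteins bind, was present in 14.8% of the 27 members (Aldh18a1, Ass1, Cbs and Slc43a1) and in 8.09% of all symbols.

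Levels of the stress regulators were set beside those of the members. Atf4 itself was at 337, 126 and 132 FPKM in CTL 1 to 3, 143, 129 and 280.5 in MS 1 to 3 and 174, 319 and 141 in Blebb 1 to 3. Its order over the libraries was close to that of Asns, with CTL 1, MS 3 and Blebb 2 above 280 FPKM and the others at most at 174 FPKM. Trib3, a pseudokinase induced by ATF4, was at 153, 21.2 and 19.4 FPKM in CTL 1 to 3, 36.4, 22.00 and 103 in MS 1 to 3 and 41.7, 183 and 23.7 in Blebb 1 to 3. Ddit3, the transcription factor CHOP, was at 137, 24.7 and 18.5 FPKM in CTL 1 to 3, 45.7, 25.8 and 99.1 in MS 1 to 3 and 23.6, 131 and 22.4 in Blebb 1 to 3. Atf5, a relative of Atf4, was at 205, 40.1 and 35.8 FPKM in CTL 1 to 3, 48.0, 34.2 and 141 in MS 1 to 3 and 67.8, 202 and 44.2 in Blebb 1 to 3, and Nupr1, a stress-induced cofactor, was at 21.7, 3.29 and 4.24 FPKM in CTL 1 to 3, 7.78, 3.59 and 22.04 in MS 1 to 3 and 5.52, 20.2 and 3.41 in Blebb 1 to 3. Ppp1r15a, which directs a phosphatase to eIF2, lay within 6.38 to 26.7 FPKM and Chac1, which degrades glutathione, within 10.3 to 48.1 FPKM. Of the 21 regulators tested, 9 (42.9%) had CTL 1, MS 3 and Blebb 2 above the other 6 libraries, beside 15.8% of all genes. Myc alone (4.76%) had them below, beside 16.1% of all genes. The number past an adjusted p of 0.05 was 0 in each comparison (limma). Cebpb, a partner of ATF4, had the smallest p of the regulators, at 0.00893 in Blebb against MS, with an adjusted p of 0.897 (limma with Benjamini-Hochberg adjustment).

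**Figure D4:**
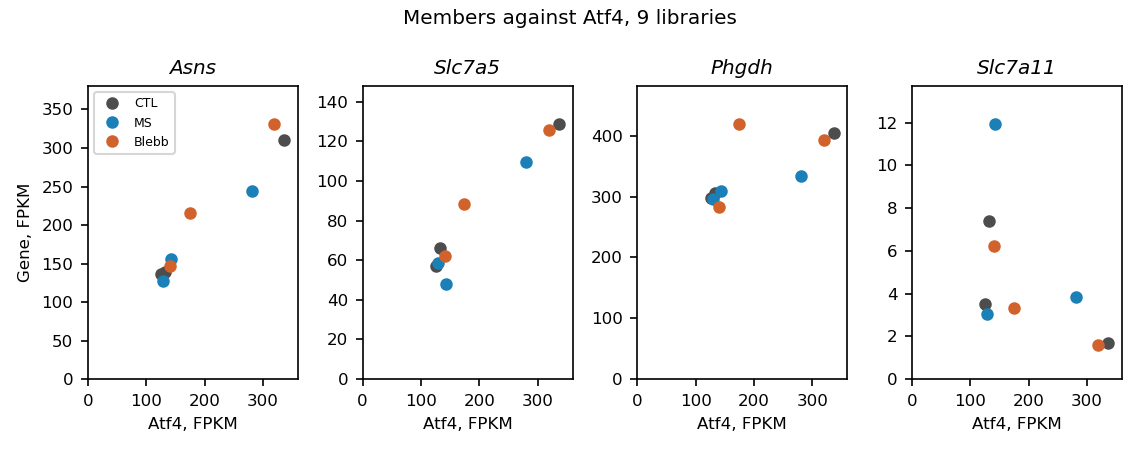
FPKM of 4 members (y axes) against FPKM of Atf4 (x axis), with 1 point per library colored by group. Asns and Slc7a5 are highest in the 3 libraries with Atf4 above 280 FPKM, Phgdh is highest in a Blebb library with Atf4 at 174 FPKM, and Slc7a11 is highest in an MS library with Atf4 at 143 FPKM.

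Straining was compared with the unstrained control to see whether these genes respond to it. In MS against CTL, 0 of the 30 members had an adjusted p under 0.05, and 0 had an unadjusted p under 0.05 (limma on log2(FPKM + 1), Benjamini-Hochberg adjustment over all genes). Over all genes tested the shares were 0% and 0.158%. The mean of log2(FPKM + 1) was higher in MS for 9 members and lower for 21 (higher for 49.5% of all genes). The log2 fold changes ran from -0.27 (Slc1a4) to 0.43 (Slc7a11), with a median of -0.081, beside -0.0018 over all genes. The median was 0.076 without CTL 1. In 0 members did the groups not overlap (3.17% of all genes). The log2 ratio of MS to CTL was -0.092 ± 0.40 for Asns (SE, 95% interval -0.99 to 0.81, adjusted p = 1.00, limma). It was 0.30 without CTL 1 and 0.11 without MS 2. For Slc7a11 it was 0.43 ± 0.56 (SE, 95% interval -0.84 to 1.71, adjusted p = 1.00, limma) and it became -0.082 without MS 1. The smallest p of the members was that of Mthfd1l, at 0.312 (adjusted p = 1.00, limma), for a log2 ratio of 0.23 ± 0.21 (SE). It was 0.095 without CTL 1, 0.42 without CTL 3 and 0.077 without CTL 1, MS 3 and Blebb 2.

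The Blebb libraries, given the inhibitor of myosin, were compared with the strained MS libraries. Whether these groups differ in the inhibitor alone or also in straining cannot be told from the labels. In Blebb against MS, 0 members had an adjusted p under 0.05 and 0 an unadjusted p under 0.05 (limma), beside 0% and 1.25% of all genes. Here the mean of log2(FPKM + 1) was higher in Blebb for 23 members and lower for 7 (higher for 49.0% of all genes). The median log2 fold change was 0.16, beside -0.0059 over all genes. The median was lowest without Blebb 2, at 0.075, and highest without Blebb 3, at 0.25. Pycr1 had the largest difference, with a log2 ratio of Blebb to MS of 0.69 ± 0.54 (SE, 95% interval -0.54 to 1.91, adjusted p = 0.897, limma), and it was at 0.21 without Blebb 2. Ass1 came nearest to the threshold. Its log2 ratio was 0.39 ± 0.18 (SE, 95% interval -0.016 to 0.80), p was 0.0576 unadjusted and 0.897 adjusted (limma), and Blebb 2 was below MS 2. Of the 30 members tested, Got1 was the only one without overlap between the groups, beside 3.73% of all genes, with all Blebb libraries above all MS libraries. The log2 ratio for Got1 was 0.20 ± 0.13 (SE, adjusted p = 0.897, limma). It was 0.11 without Blebb 2 and 0.052 without CTL 1, MS 3 and Blebb 2. Asns was at 0.37 (95% interval -0.53 to 1.27) and Slc7a11 at -0.55 (95% interval -1.82 to 0.72), both with an adjusted p of 0.897 (limma). Asns was at 0.074 without Blebb 2 and at 0.66 without Blebb 3, and Slc7a11 was at -0.029 without MS 1. Without CTL 1, MS 3 and Blebb 2, a setting chosen after seeing the data, 0 members had an adjusted p under 0.05. In that setting Ass1, Pycr1, Slc1a5 and Slc7a5 had an unadjusted p under 0.05 (from 0.0175 to 0.0483, limma). They were 4 of the 30 members, beside 111 of the 10109 genes tested. Their log2 fold changes were 0.38, 0.61, 0.40 and 0.47. The libraries left out were the highest of their groups in Pycr1, Slc1a5 and Slc7a5 and the lowest in Ass1. With them left out the SE of Pycr1 was 0.24, against 0.54 with all libraries. These p values depend in part on that choice of libraries.

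In Blebb against CTL, which shares its libraries with the other comparisons, 0 members had an adjusted p under 0.05 and 0 an unadjusted p under 0.05 (limma), beside 0% and 0.0890% of all genes. The mean of log2(FPKM + 1) was higher in Blebb for 22 members and lower for 8 (higher for 46.0% of all genes). The median log2 fold change was 0.091, beside -0.013 over all genes. The median was -0.016 without Blebb 2 and -0.043 without CTL 2. The log2 ratio of Blebb to CTL was 0.28 for Asns (95% interval -0.62 to 1.18) and 0.46 for Pycr1 (95% interval -0.77 to 1.68), with an adjusted p of 1.00 for both (limma). Without Blebb 2 these were -0.017 and -0.015. In 0 members did the groups not overlap (2.08% of all genes). A test of any difference among the 3 groups gave 0 members with an adjusted p under 0.05 and 0 with an unadjusted p under 0.05 (moderated F test in limma), beside 0% and 0.257% of all genes.

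**Figure D5:**
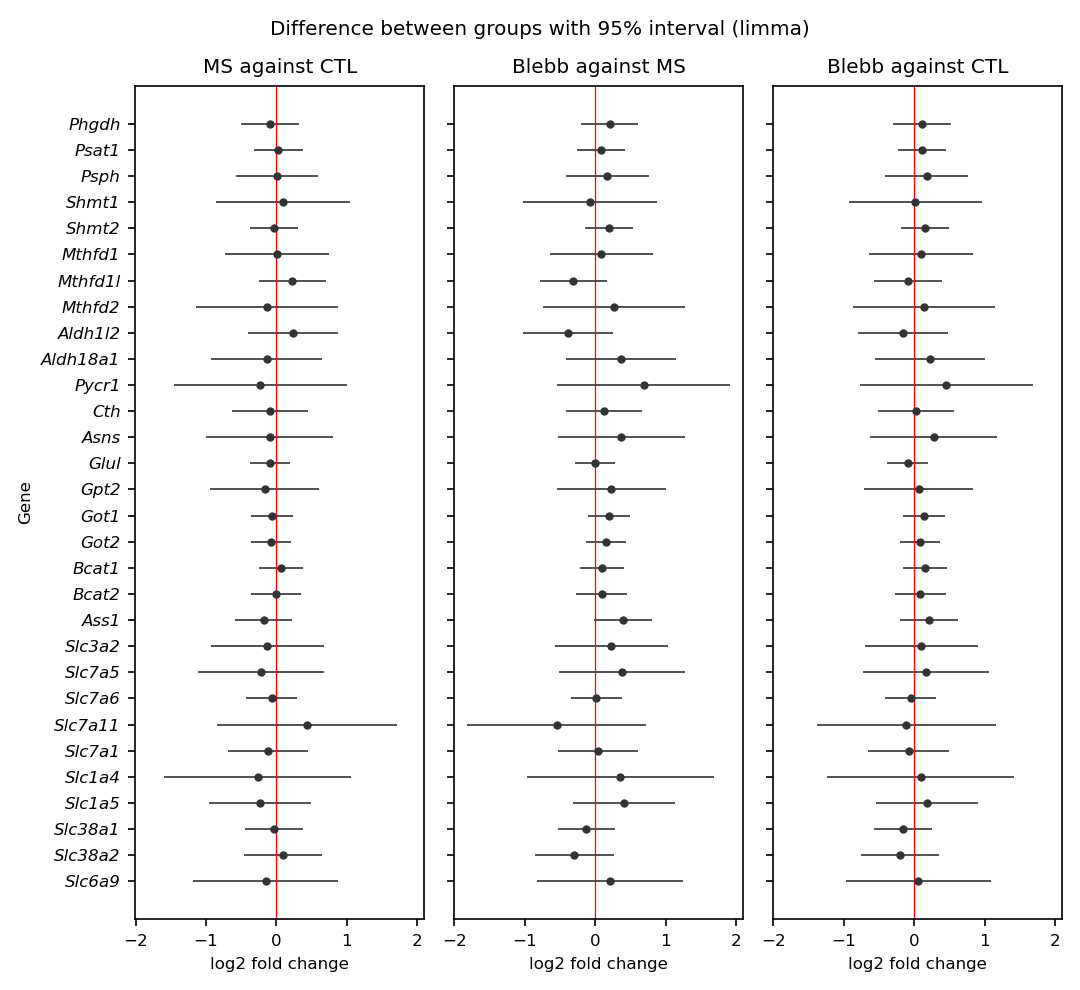
Log2 fold change (x axis) of the 30 members tested (y axis) in the 3 comparisons, with points for the estimate and lines for the 95% interval from limma. Every interval includes 0, and the widest are those of Slc1a4, Slc7a11 and Pycr1.

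The median spread within groups was wider for these genes than for all genes, though not for every member. The residual SD on the log2 scale had a median of 0.36 over the 30 members, beside 0.25 over all genes tested. Of the 30 members, 19 were above the median of all genes and 8 above the 90th percentile. The members were chosen with earlier results of these data known, so this cannot be read as a property of the set. The highest library was a median of 1.97 times the lowest in the members and 1.73 times in the 10099 genes above 0 in every library. Slc1a4 (0.87), Slc7a11 (0.83) and Pycr1 (0.80) had the largest residual SD, and Got2 (0.13) and Glul (0.13) the smallest. The summed FPKM of the 34 members made up between 0.440% of all FPKM in MS 1 and 0.595% in Blebb 2.

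Other genes of amino acid metabolism were read from a list of 36 enzymes, of which 29 were tested. The number past the threshold was 0 in each comparison, and 0 had an unadjusted p under 0.05 (limma). In 6 of the 29 (20.7%, beside 15.8% of all genes) CTL 1, MS 3 and Blebb 2 lay above the other libraries. In 8 (27.6%, beside 16.1% of all genes) they lay below. Aldh1l1 was among the former, at 43.5, 18.7 and 14.9 FPKM in CTL 1 to 3, 13.9, 15.8 and 31.7 in MS 1 to 3 and 16.1, 35.5 and 12.1 in Blebb 1 to 3. Tyms, the thymidylate synthase, was among the latter, at 12.4 to 29.8 FPKM. Dld, the lipoamide dehydrogenase of the glycine cleavage system and other complexes, lay within 7.94 to 35.1 FPKM. Dbt, of the branched-chain ketoacid complex, lay within 0.278 to 2.89 FPKM.

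Of 36 further carriers, 19 were tested, and the number past the threshold was again 0 in each comparison, with 0 at an unadjusted p under 0.05 (limma). Slc7a8, a light chain for small and large neutral amino acids, was at 5.74, 3.06 and 2.18 FPKM in CTL 1 to 3, 1.05, 2.04 and 4.09 in MS 1 to 3 and 2.24, 5.63 and 2.03 in Blebb 1 to 3. In 3 of the 19 (15.8%), Slc7a8, Slc38a7 and Slc38a9, CTL 1, MS 3 and Blebb 2 were above the other libraries. The share over all genes tested was the same, at 15.8%. Slc6a6, the taurine carrier, was the only carrier in which these libraries were below (5.26%, beside 16.1% of all genes). It lay within 43.6 to 103 FPKM. Slc38a7 lay within 30.3 to 62.3 FPKM, Slc6a17 within 26.0 to 58.5 FPKM, Slc25a13, the mitochondrial aspartate and glutamate carrier, within 15.6 to 36.6 FPKM, and Slc6a15 within 0.496 to 2.45 FPKM.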

How the data were processed

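The authors extracted RNA with TRIzol, made libraries with a SMARTER mRNA-Seq kit for Illumina sequencing, and deposited a table of FPKM for each library. Builds GRCm38 and mm10 are listed in the submitters' processing notes. The aligner, counting program, annotation and filters are not given in the sources used here. The column of CTL 1 is headed by the sample's name and was read as FPKM. Read numbers are unknown, which leaves counting error out of all intervals. Tests were run on log2(FPKM + 1), which shrinks the differences of weakly expressed genes. After removal of genes whose mean was below 1 FPKM, 10109 were fitted in limma 3.58.1 under R 4.3.3 on the 3 groups. The fit used a mean-variance trend, two-sided tests and Benjamini-Hochberg adjustment over all genes at 0.05. It was run on simulated data in which each gene varied independently, which does not cover variation shared by genes within a library. The paper gives a one-way analysis of variance with Tukey's comparisons for its data in general, without naming the sequencing data, and it was not used here. Members below that mean were tested by exact permutation of the libraries. Members and lists were chosen with earlier results of these data known. Every member is named. In each class the values of all libraries are given for the members with the largest SD over libraries (at most 4) and the one with the smallest, and in the other lists for up to 6 genes of largest SD, which may be given as ranges. Fold changes are given for Asns and for members at the ends of the range, chosen after their values were seen. GC content was that of the longest GENCODE M21 transcript, found for 95.6% of genes. Alternatives were another pseudocount, other minimums, median-of-ratios and quantile scaling, no trend, only the groups compared, a replicate block, removal of the GC trend and leaving out libraries. Some genes of the further enzyme list are not reported here. Plots were drawn with matplotlib 3.10.9.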

Additional observations from a re-analysis of the deposited data

How the results depend on the processing

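The number of members with an adjusted p under 0.05 was 0 in each comparison under every alternative run. Those planned for counts were not run, since the files hold FPKM. Over all genes the number was from 0 to 1 with each library left out in MS against CTL and in Blebb against MS, the 1 coming without MS 2, and 0 otherwise. Members at an unadjusted p under 0.05 were 0, except in MS against CTL with each library left out (0 to 1, Aldh1l2 without MS 2), and in Blebb against MS with median-of-ratios factors (1, Ass1), with each library left out (0 to 2, the 2 being Aldh1l2 and Ass1 without MS 2) and without CTL 1, MS 3 and Blebb 2 together (4). Over all 10109 genes the number in MS against CTL was 7 to 115 with each library left out (115 without MS 2). In Blebb against MS it was 154 with median-of-ratios factors and 34 to 934 with each library left out (598 without MS 2). It was 111 there without CTL 1, MS 3 and Blebb 2 together. Leaving these 3 out was added after seeing the data, and brought Asns in MS against CTL to 0.034. With each library left out, Asns ran from -0.35 to 0.30 and Slc7a11 from -0.082 to 0.86 in MS against CTL, and the median of the members from -0.14 to 0.076. In Blebb against CTL, Asns ran from -0.017 to 0.67, Pycr1 from -0.015 to 0.92 and the median from -0.043 to 0.18. The cause was not tested. Members highest of their group in CTL 1, MS 3 and Blebb 2 numbered 15, and from 13 (GC trend removed) to 16 (no minimum) under the alternatives. With the replicate number as a block, the members at an unadjusted p under 0.05 were 0 in each comparison and no call changed. Samples with the same number did not consistently deviate together (r from -0.785 for MS 1 and CTL 1 to 0.835 for Blebb 3 and CTL 3). Of the 9, 2 correlated best with their own number. With 3 libraries a group and this spread, the intervals given limit what could be detected.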

Other observations

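Cysteine, arginine and methionine feed the synthesis of glutathione and polyamines, and 13 genes of these pathways were read from a list. All 13 were tested, and 0 passed the threshold in any of the 3 comparisons, with 0 at an unadjusted p under 0.05 (limma with Benjamini-Hochberg adjustment). Gsr, the glutathione reductase, was expressed at 13.6, 49.8 and 60.4 FPKM in CTL 1 to 3, 55.7, 46.9 and 22.6 in MS 1 to 3 and 48.3, 18.8 and 54.6 in Blebb 1 to 3. The genes of both subunits of glutamate-cysteine ligase, which opens glutathione synthesis, were lowest in CTL 1, MS 3 and Blebb 2 as well. Gclm was at 7.21, 15.4 and 18.01 FPKM in CTL 1 to 3, 21.99, 13.1 and 9.60 in MS 1 to 3 and 16.1, 8.83 and 19.0 in Blebb 1 to 3 and Gclc at 5.68, 9.42 and 13.1 FPKM in CTL 1 to 3, 14.4, 9.24 and 7.46 in MS 1 to 3 and 8.82, 5.19 and 12.0 in Blebb 1 to 3. In 6 of the 13 (46.2%), Gclc, Gclm, Gsr, Odc1, Srm and Sat1, these 3 libraries lay below the other 6, beside 16.1% of all genes tested. Oaz2 was the only gene of the list with them above (7.69%, beside 15.8% of all genes). Srm, the spermidine synthase, lay within 50.1 to 97.6 FPKM, Amd1, which makes the aminopropyl donor, within 15.9 to 37.6 FPKM and Azin1, the antizyme inhibitor, within 8.50 to 17.2 FPKM.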
